A study of Homo sapiens with 4 samples.

Results

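The genes described here build and run the DNA replication fork: the origin recognition complex, the kinase and helicase partners that fire an origin, the replicative polymerases, the sliding clamp and its loaders, the enzymes that finish the lagging strand, and the factors that protect the fork. They were taken by symbol from a fixed list of 43 genes, and all 43 had a row in each of the 4 libraries, among 42113 gene models. Genes whose 4 values had a mean of 30 normalized counts or more were taken as measured, 42 of the 43 members and 12742 gene models in all. The lowest mean of a measured member was 31.9, at PRIM2, and the next lowest was 188; RECQL4, with a mean of 5.15, was not measured.

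The cells were A549, an established human lung cancer line, cultured in RPMI with fetal calf serum, each line carrying a stable lentiviral short hairpin RNA (shRNA). The 4 groups were control shRNA cells left untreated, LIMA1 shRNA cells left untreated, control shRNA cells given nutlin-3a at 10 µM and LIMA1 shRNA cells given nutlin-3a at 10 µM, with RNA taken 24 h after treatment. Each group was 1 library, so there is no replicate error, no test was made, and each difference compares libraries. The labels give no number of clones or pools behind each line, and the hairpin and any other lasting difference between the lines cannot be told apart. The sample titles write si where the protocols write shRNA, and the header of the last library names EPLIN, another name of LIMA1.

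Replication starts where the origin recognition complex has loaded the MCM helicase and a kinase, CDC7 with its activator DBF4, lets CDC45 and the GINS complex join it. Polymerase alpha and primase then lay down primers, replication factor C places the ring-shaped clamp PCNA on them, and polymerases epsilon and delta extend them. Most genes of this machinery are transcribed by E2F factors as cells enter S phase. Nutlin-3a frees p53 from its ubiquitin ligase MDM2; p53 induces the cyclin-dependent kinase inhibitor p21 (CDKN1A), and the retinoblastoma family proteins and the DREAM complex then hold E2F target genes down. PCNA is known both as an E2F target and as a direct p53 target.

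Some of the members' promoters hold words that E2F factors are known to bind, and that of PCNA a match to the p53 site; a few are shown first because the members differ in their nutlin-3a differences. Promoter windows of 250 bases before to 50 bases from the start of transcription, from RefSeq on GRCh38.p14 (another build than the hg19 named for the files), were found for 36 of the 43 members. The 4 E2F words searched were TTTCCCGC, TTTGGCGC, TTTCGCGC and TTTGCCGC, on both strands. At least 1 of them lay in the windows of 15 of the 36 members (CDC7, GINS1, GINS2, GINS3, POLA1, POLA2, POLE, POLE2, RFC3, LIG1, PCNA, ORC3, CLSPN, TIPIN and TOPBP1), against 3.99% of all 27305 genes with a window and 6.84% of the 9157 measured genes with one. The stretches below show the word in capitals with 10 bases on each side, 5′ to 3′ on the gene's strand; the first 4 belong to members that were far lower with nutlin-3a, and the next 3 to members that were less so or, at PCNA, higher.
GINS2, chr16:85688968-85688995, minus strand: tctcgccgtgGCGGGAAAacggcggccg
CLSPN, chr1:35769966-35769993, minus strand: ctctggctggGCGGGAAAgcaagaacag
POLE2, chr14:49688202-49688229, minus strand: tgcggcggtgGCGCCAAAtcgcaaatat
GINS1, chr20:25407668-25407695, plus strand: gctttgttcgGCGCCAAAgcgcggagcg
LIG1, chr19:48170441-48170468, minus strand: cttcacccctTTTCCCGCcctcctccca
ORC3, chr6:87590113-87590140, plus strand: gcgagggcgcGCGGGAAAtcccgagtgc
PCNA, chr20:5126664-5126691, minus strand: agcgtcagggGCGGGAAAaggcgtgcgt

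PCNA has another listed start, and its window holds a match to the 20-base p53 consensus site with 2 mismatches, at 236 to 217 bases before that start. The stretch is shown because PCNA was the member that was higher in both lines; the site is in capitals.
PCNA, chr20:5120170-5120199, minus strand: tctccACATATGCCCGGACTTGTTCtgcgg
A match with at most 2 mismatches was found in 1 of the 36 members and in 0.699% of the measured genes with a window. The tolerance of 2 was set after this sequence had been seen. The word CCAAT was in 20 of the 36 windows, against 43.6% of the measured genes, and the words TTTGAA and TTTAAA, which the DREAM complex is known to bind, were in 3, against 21.4%. The E2F words were in 12 of the 27 windows of members that were lower in both lines and in 3 of the other 9. The stretches shown were picked among members with a word. No such word was found in the windows of CDC45, ORC1, ORC6 and PRIM1, which were also far lower with nutlin-3a. These matches describe letters in a window.

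The libraries held 15150689 to 16744853 fragments, computed from the value of 1 fragment. LIMA1 was at 416 normalized counts untreated and 866 with nutlin-3a in control shRNA cells, and at 68.3 and 133 in LIMA1 shRNA cells. CDKN1A was at 1066 and 1178 normalized counts in the untreated control and LIMA1 shRNA libraries and at 34078 and 48106 with nutlin-3a, and MDM2 at 1844 and 1857 and then 27580 and 33982. Of 10 markers of A549 and lung epithelium, all 10 were detected in each library, EPCAM lowest at 31.1 to 229 normalized counts. Of 4 blood cell markers, CD3E was at 0 in all 4 libraries and PTPRC at 0 in 3 of them, LYZ was at 3.22 to 22.8 normalized counts and CD68, a lysosomal protein gene used as a macrophage marker, at 613 to 897, so that the sum was 636 to 900. The summed endothelial markers were at 3.22 to 12.9 and the summed fibroblast markers at most at 123.

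Nutlin-3a went with lower levels of nearly the whole machinery in both lines, and PCNA was the exception in both. A gene is called lower or higher here at a difference of at least 1 on the log2(normalized count + 1) scale, which is a 2-fold change for genes well above 0 and understates low genes. In control shRNA cells 34 of the 42 measured members were lower and 1 was higher, where 5.64% and 5.54% of all measured genes were; the member called higher was PRIM2, described below. In LIMA1 shRNA cells 33 were lower and 0 higher, where 6.08% and 7.29% of all genes were. The median difference of the members was -2.38 in control and -1.98 in LIMA1 shRNA cells, and that of all measured genes was -0.02 in each. In all, 33 members were lower in both lines, where 4.58% of all genes were, and 0 were called higher in both, where 4.7% were. By sign alone, 2 members (PCNA and PRIM2) lay above 0 in control and 1 (PCNA) in LIMA1 shRNA cells, where 48.5% of all genes did in each line. In bulk RNA, fewer cells in S phase and less of these RNAs per cell cannot be told apart.

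**Figure D1:**
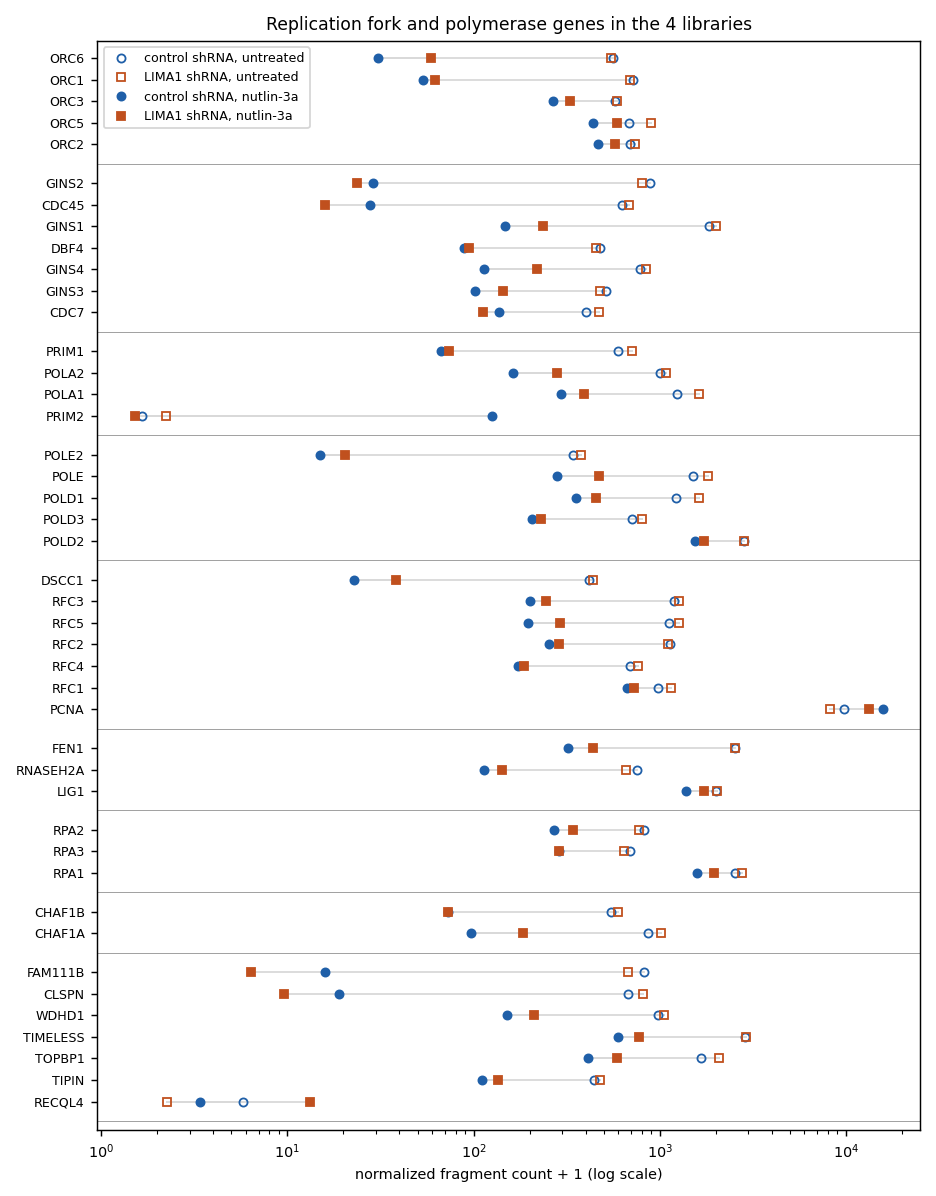
Normalized fragment counts plus 1 (horizontal axis, log scale) of the 43 listed genes in the 4 libraries, grouped by role in the order of the text. Open symbols are untreated and filled symbols nutlin-3a; circles are control shRNA and squares LIMA1 shRNA. In most rows the filled symbols lie far to the left of the open ones; in the row of PCNA they lie to the right.

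The origin recognition complex was split. ORC1, the subunit that comes and goes with the cell cycle, was at 714 and 693 normalized counts in untreated control and LIMA1 shRNA cells and at 52.6 and 61.1 with nutlin-3a, differences of -3.74 (95% counting interval -4.19 to -3.36) and -3.48 (-3.92 to -3.11). ORC6, the smallest subunit, was at 562 and 546 normalized counts untreated and at 29.8 and 57.9 with nutlin-3a. Both were low in both treated libraries. The core subunits stayed nearer to their untreated levels. ORC2 went from 694 to 462 normalized counts in control and from 734 to 571 in LIMA1 shRNA cells, and ORC5 from 680 to 440 and from 894 to 592. ORC3 lay between them, with 46.1% of its untreated level left in control cells (difference -1.11, called) and 55.8% in LIMA1 shRNA cells (-0.84, not called). On a scale of normalized counts per kilobase of the longest coding transcript, the subunits had been close in untreated control cells, from 161 at ORC2 to 347 at ORC5, with ORC1 at 226 and ORC6 at 331.

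All 7 genes of origin firing were lower in both lines. CDC45, which joins the MCM ring to GINS in the active helicase, was at 626 and 683 normalized counts untreated and at 26.8 and 15.0 with nutlin-3a, differences of -4.49 (-5.16 to -3.99) and -5.42 (-6.39 to -4.75). GINS2 was at 892 and 803 normalized counts untreated and at 27.8 and 22.5 with nutlin-3a, so that 3.12% and 2.81% were left. The 4 GINS subunits form one complex, but their remaining shares differed: GINS1 was at 8.01% of its untreated level in control cells, GINS4 at 14.6% and GINS3 at 19.7%. In LIMA1 shRNA cells GINS1 was at 11.7% and GINS4 at 26.0%, and GINS3 went from 475 to 143 normalized counts. The kinase gene CDC7 had the smallest difference of the group in control cells, from 402 to 136 normalized counts (-1.56), and went from 470 to 111 in LIMA1 shRNA cells (-2.07). Its activator DBF4 went from 480 to 87.9 and from 456 to 93.3.

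Among the primer-making enzymes, POLA1, the catalytic subunit of polymerase alpha, was at 1233 and 1628 normalized counts untreated and at 296 and 389 with nutlin-3a, a difference of -2.06 in each line. POLA2, its regulatory subunit, went from 1002 to 162 in control and from 1077 to 281 in LIMA1 shRNA cells. PRIM1, the catalytic primase subunit, was at 593 and 707 normalized counts untreated and at 65.5 and 72.9 with nutlin-3a, with 11.1% and 10.3% left. All 3 were low in both treated libraries.

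PRIM2, the large primase subunit, stood apart from them, and its values cannot be read like those of the others. It was at 0.664 and 1.22 normalized counts in the untreated control and LIMA1 shRNA libraries, at 125 in control cells with nutlin-3a and at 0.514 in LIMA1 shRNA cells with nutlin-3a. A floor of 3 fragments is worth 2.83 to 3.22 normalized counts, so 3 of the 4 values lay under the floor; the value with nutlin-3a in control cells was at least 44.3-fold higher than the untreated one and at least 38.9-fold higher than that of LIMA1 shRNA cells with nutlin-3a. PRIM2 passed the minimum mean only through that 1 library, and its values were not all whole numbers of fragments. RECQL4, a helicase acting at origins, was low in all 4 libraries, at 4.77 and 1.26 normalized counts untreated and 2.41 and 12.2 with nutlin-3a in control and LIMA1 shRNA cells, and lay over the floor in 2 of them. Whether reads of either gene were given to another gene model was not tested. Without PRIM2 the count of members higher in control cells was 0.

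The polymerases that extend the primers were lower to unequal extents. POLE, the catalytic subunit of polymerase epsilon, was at 1512 and 1809 normalized counts untreated and at 280 and 474 with nutlin-3a, differences of -2.43 (-2.62 to -2.25) and -1.93 (-2.09 to -1.78). Its partner POLE2 went from 340 to 13.9 normalized counts in control cells and from 379 to 19.3 in LIMA1 shRNA cells, so 4.08% and 5.09% were left. For polymerase delta, the catalytic subunit POLD1 went from 1221 to 353 and from 1629 to 453 normalized counts, and POLD3 from 707 to 204 and from 802 to 229. POLD2, which links these subunits, was not called in either line, at 2851 and 2824 normalized counts untreated and 1551 and 1721 with nutlin-3a (-0.88 and -0.71). Per kilobase, POLD2 had been the most abundant of the 5 epsilon and delta subunits listed in untreated control cells, at 1321 against 347 for POLD1 and 185 for POLD3.

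PCNA was the most abundant member on either scale and the only measured member above 0 in both nutlin-3a differences. It was at 9726 and 8234 normalized counts in untreated control and LIMA1 shRNA cells and at 15847 and 13386 with nutlin-3a. Both treated libraries lay above both untreated ones. The differences were 0.70 (0.67 to 0.74) and 0.70 (0.66 to 0.74), under the size for a call; the level was 1.63-fold higher in each line. All 384 bases of the antisense gene PCNA-AS1 in RefSeq lie within PCNA exons of the GENCODE 29 annotation, which does not itself list PCNA-AS1, so reads of the 2 genes in that stretch cannot be told apart without strand, which the labels do not state. PCNA-AS1 was at 337 and 207 normalized counts untreated and at 576 and 389 with nutlin-3a.

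The loaders of the clamp lay on the other side of 0. RFC2, RFC3, RFC4 and RFC5, the small subunits shared by every form of the loader, were lower in both lines, with differences from -2.57 to -1.95. RFC3, for one, was at 1193 and 1275 normalized counts untreated and at 201 and 244 with nutlin-3a. RFC1, the large subunit that gives the loader its usual form, was at 977 and 1144 untreated and 669 and 724 with nutlin-3a, and was not called (-0.55 and -0.66). DSCC1, part of an alternative loader linked to sister chromatid cohesion, went from 419 to 21.8 normalized counts in control and from 438 to 37.5 in LIMA1 shRNA cells. The small subunits were at 16.8% to 25.9% of their untreated levels over both lines, RFC1 at 68.4% and 63.3%, and DSCC1 at 5.22% and 8.56%.

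Of the enzymes that finish the lagging strand, the flap nuclease gene FEN1 was at 2530 normalized counts in both untreated libraries and at 320 and 435 with nutlin-3a, differences of -2.98 (-3.16 to -2.82) and -2.54 (-2.69 to -2.39). RNASEH2A, the catalytic subunit of the nuclease that removes RNA primers, went from 750 to 112 and from 662 to 140 normalized counts. LIG1, the ligase that seals the fragments, was not called, at 2018 and 2026 untreated and 1387 and 1739 with nutlin-3a (-0.54 and -0.22).

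The single-strand binding protein RPA showed the same kind of split. RPA1, its large subunit, was at 2538 and 2775 normalized counts untreated and at 1588 and 1968 with nutlin-3a, with 62.6% and 70.9% left. RPA2 had 33.0% and 44.1% left and RPA3 41.5% and 44.8%, and both were lower by the call size in both lines. The chromatin assembly factor subunits, which place histones behind the fork, were lower by more. CHAF1A went from 863 to 96.3 normalized counts in control and from 1015 to 183 in LIMA1 shRNA cells, and CHAF1B had 13.0% left in control cells and went from 600 to 71.8 normalized counts in LIMA1 shRNA cells.

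FAM111B and CLSPN had the lowest nutlin-3a differences of the measured members in both lines. FAM111B, a gene of a protease family whose better known relative FAM111A binds PCNA, was at 825 and 671 normalized counts untreated and at 14.9 and 5.36 with nutlin-3a, differences of -5.70 (-6.64 to -5.06) and -6.72 (-8.60 to -5.74). CLSPN, the claspin adaptor that passes the checkpoint signal from ATR to CHEK1, was at 678 and 813 normalized counts untreated and at 17.9 and 8.58 with nutlin-3a, differences of -5.17 (-6.01 to -4.57) and -6.41 (-7.78 to -5.58). The treated libraries held 15 and 5 fragments of FAM111B and 18 and 8 of CLSPN, and their intervals are wide. TIMELESS and TIPIN, which travel with claspin as the fork protection complex, were lower by less: TIMELESS went from 2857 to 600 and from 2916 to 771 normalized counts, and TIPIN from 441 to 110 and from 480 to 135. WDHD1, which ties polymerase alpha to the helicase, went from 983 to 150 normalized counts in control and from 1056 to 211 in LIMA1 shRNA cells, and TOPBP1, an origin firing and checkpoint scaffold, had 24.7% and 28.3% left.

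**Figure D2:**
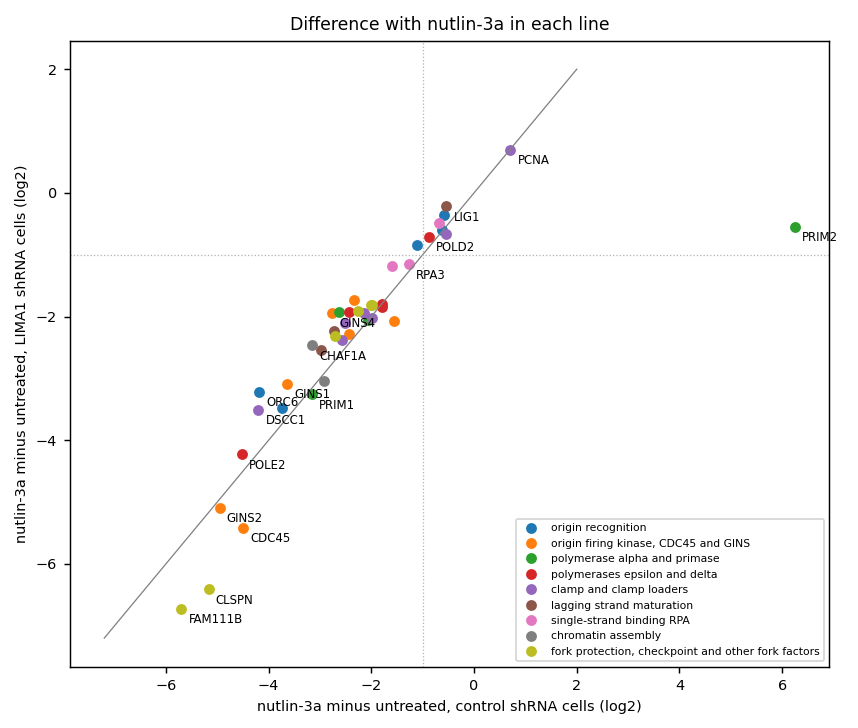
Each of the 42 measured members by its nutlin-3a minus untreated difference in control shRNA cells (horizontal axis) and LIMA1 shRNA cells (vertical axis), both on the log2 scale and coloured by role. The solid line marks equal differences and the dotted lines the call size; FAM111B, CLSPN and CDC45 lie below the line at the lower left, PCNA at 0.70 on both axes, and PRIM2 alone at the far right.

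The order of the members was alike in both lines, whose nutlin-3a differences share no library. Across the 41 members other than PRIM2, the correlation was 0.96 (Pearson) and 0.95 (Spearman); this describes genes, which are not replicates, and all share the same libraries and scaling. The members measured but not called lower in both lines were 9: POLD2, PRIM2, RFC1, LIG1, PCNA, ORC2, ORC3, ORC5 and RPA1. Among the 33 called in both, 1.81% to 41.5% of the untreated level was left in control cells and 0.799% to 44.8% in LIMA1 shRNA cells. Less than 10% was left for 9 members in control and 7 in LIMA1 shRNA cells, a cut at which no share of all genes was computed.

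The LIMA1 shRNA libraries differed far less from the control shRNA libraries. In untreated cells no member reached a difference of 1 in either direction, where 2.05% of all genes were lower and 1.04% higher. The median over members was 0.11 (0.05 after upper-quartile scaling), against 0.02 over all measured genes, and 30 of 42 members lay above 0, where 54.4% of all genes did. The largest positive differences outside PRIM2 were at POLD1 (1221 and 1629 normalized counts in control and LIMA1 shRNA cells, 0.42, 0.31 to 0.52), POLA1 (1233 and 1628, 0.40, 0.30 to 0.51) and ORC5 (680 and 894, 0.39, 0.25 to 0.54). The counting interval lay above 0 for 14 members and below 0 for 4, namely GINS2, PCNA, RNASEH2A and FAM111B. No share of all genes was computed for such intervals. The counts of 30 and 14 depend on the scaling. FEN1, LIG1, ORC3 and TIMELESS lay above 0 by only 0.00015 to 0.03. The lower bounds of CDC7, GINS1, POLD3 and RPA1 were 0.04, 0.05, 0.04 and 0.05. Upper-quartile scaling moved the median of all measured genes from 0.02 to -0.03. PCNA was at 8234 against 9726 normalized counts (-0.24, -0.28 to -0.20), and FAM111B at 671 against 825 (-0.30, -0.44 to -0.15). These intervals cover counting error only, and the spread between cultures is not known.

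With nutlin-3a, most members stood somewhat higher in LIMA1 than in control shRNA cells. Here 0 members were higher by 1, where 1.26% of all genes were, and 2 were lower, FAM111B and PRIM2, where 1.94% were; without PRIM2 the count was 1. The median was 0.31 (0.27 after upper-quartile and 0.26 after equal-total scaling), against 0.03 over all genes, and 35 of 42 members lay above 0, where 54.6% of all genes did. GINS4 was at 218 normalized counts in LIMA1 shRNA cells against 113 in control cells (0.94, 0.61 to 1.29). ORC6 was at 57.9 against 29.8 (0.94, 0.29 to 1.65), CHAF1A at 183 against 96.3 (0.92, 0.56 to 1.30), POLA2 at 281 against 162 (0.79, 0.51 to 1.09) and POLE at 474 against 280 (0.76, 0.54 to 0.98). All of these were well under their untreated levels in both lines. In both treatments alike, 26 members were above 0, where 40.6% of all genes were, and 3 (GINS2, PCNA and FAM111B) below 0, where 31.6% were. Both counts depend on the scaling, because FEN1, LIG1, ORC3 and TIMELESS untreated and CHAF1B and RPA3 with nutlin-3a lay near 0.

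The members with the least RNA left were split. In 5 of them, CDC45, GINS2, POLE2, CLSPN and FAM111B, the mean nutlin-3a difference was -4 or lower, a limit chosen after the values were seen. Of these, 4 were lower in LIMA1 shRNA than in control cells with nutlin-3a, and the exception was POLE2 at 0.45 (-0.62 to 1.59). CLSPN was at 8.58 against 17.9 normalized counts (-0.98, -2.47 to 0.21), FAM111B at 5.36 against 14.9 (-1.32, -3.29 to 0.06), CDC45 at 15.0 against 26.8 (-0.80, -1.88 to 0.15) and GINS2 at 22.5 against 27.8 (-0.29, -1.19 to 0.56). The counting intervals, which are on the ratio without the added 1, included 0 for all 4. At this depth none of these differences could be told from counting error alone. The split depends on that limit: the next 3 in order, DSCC1, ORC6 and ORC1, were at 0.75, 0.94 and 0.21, and of the 9 members with under 10% left in control cells, 4 were below 0 and 5 above. Among the 28 members called lower in both lines and above that limit, 27 were above 0, all but CDC7, although CHAF1B (0.01) and RPA3 (0.0047) were below 0 after upper-quartile and equal-total scaling. PCNA was again lower in LIMA1 shRNA cells, at 13386 against 15847 normalized counts (-0.24, -0.28 to -0.21), the same difference as in untreated cells.

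**Figure D3:**
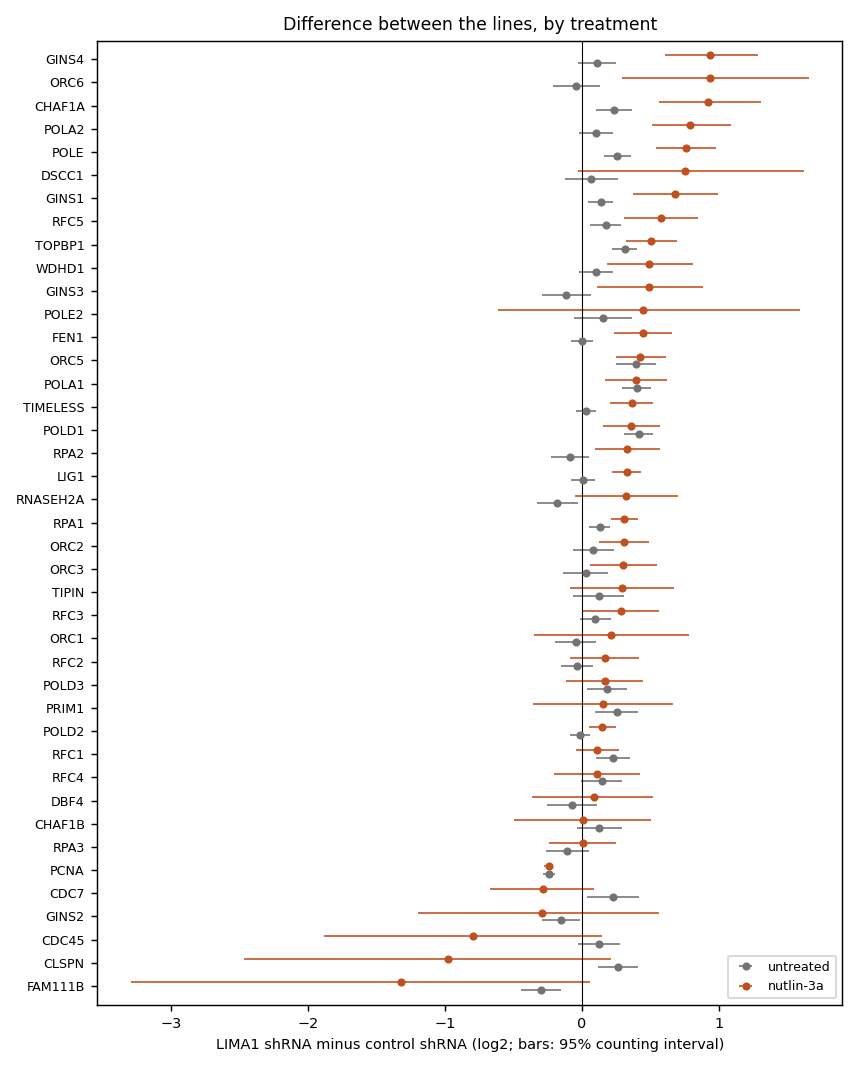
LIMA1 shRNA minus control shRNA difference (log2) of the 41 measured members other than PRIM2, in untreated cells (grey) and with nutlin-3a (orange), sorted by the latter; bars are 95% intervals for counting error. The orange points run from -1.32 at FAM111B to 0.94 at GINS4 and ORC6, and those of PCNA are at -0.24 in both treatments.

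The change in the nutlin-3a response between the lines uses all 4 libraries. Its median over members was 0.19, against 0.01 over all genes, where a positive value means that less was lost in LIMA1 shRNA cells, and 28 of 42 members lay above 0, where 52% of all genes did. The members at or under -1 were 3, PRIM2, CLSPN and FAM111B, where 0.816% of all genes were, and 0 reached 1, where 1.27% did. Without PRIM2, which was measured only through its high library, the count at or under -1 was 2 of 41. The exact conditional interval of the fragment ratios lay above 0 for 16 members and below 0 for 2, CDC7 (-0.51, -0.94 to -0.09) and CLSPN (-1.24, -2.74 to -0.04). It covers counting error only, and no share of all genes was computed for it. The interval of CDC45 (-0.92, -2.02 to 0.04) included 0, as did that of FAM111B (-1.02), with an upper bound of 0.37. On the high side were ORC6 (0.98, 0.30 to 1.72), GINS4 (0.83, 0.47 to 1.21), POLA2 (0.69, 0.38 to 1.01) and CHAF1A (0.69, 0.30 to 1.09). The values of GINS4 were not all whole numbers of fragments. For PCNA the difference of the responses was -0.0033, with an interval from -0.06 to 0.05.

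Other genes of the fork, which are no members, were less uniform. Of 28 listed, all were measured, and 16 were lower in control and 15 in LIMA1 shRNA cells with nutlin-3a, while 0 and 1 were higher. The medians were -1.21 and -1.13. TICRR, which brings CDC45 to origins, went from 832 to 21.8 normalized counts in control and from 764 to 19.3 in LIMA1 shRNA cells, and ASF1B, a histone chaperone that works with the chromatin assembly factor, from 839 to 24.8 and from 691 to 17.2. TOP2A, the topoisomerase that untangles replicated strands, went from 12109 to 736 and from 12121 to 646. CHTF18, the large subunit of the loader that holds DSCC1, went from 293 to 18.9 and from 329 to 49.3, and with nutlin-3a it was higher in LIMA1 shRNA cells by 1.34. The gene called higher, named after its values were seen, was POLD4, the small subunit of polymerase delta, at 833 and 834 normalized counts untreated and 1646 and 1693 with nutlin-3a (0.98 and 1.02). POLD4 and PCNA were thus the fork genes above 0 in both lines among the members and this list. The values of POLD4 were not all whole numbers of fragments and could mix reads with another gene model.

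Lists from neighbouring parts of the cell cycle programme give a scale for these values; for nutlin-3a the members' medians lay between theirs, and between the lines with nutlin-3a the members' median was the highest. The 10 MCM and licensing genes had median nutlin-3a differences of -3.41 in control and -3.36 in LIMA1 shRNA cells, the 11 genes of deoxynucleotide supply -1.08 and -1.32, and the 20 mitotic genes -4.76 and -5.02. Between the lines with nutlin-3a, the median was 0.31 for the members, 0.23 for MCM and licensing genes and 0.05 for deoxynucleotide supply. It was -0.31 for mitotic genes, where 15 of 20 lay below 0, and 0.06 for the 28 other fork genes, where 18 lay above 0. For the difference of responses, the median was -0.02 for the other fork genes, with 12 above 0, and 0.19 for the members. These lists are described by their medians, and no test of the differences between them was made.

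**Figure D4:**
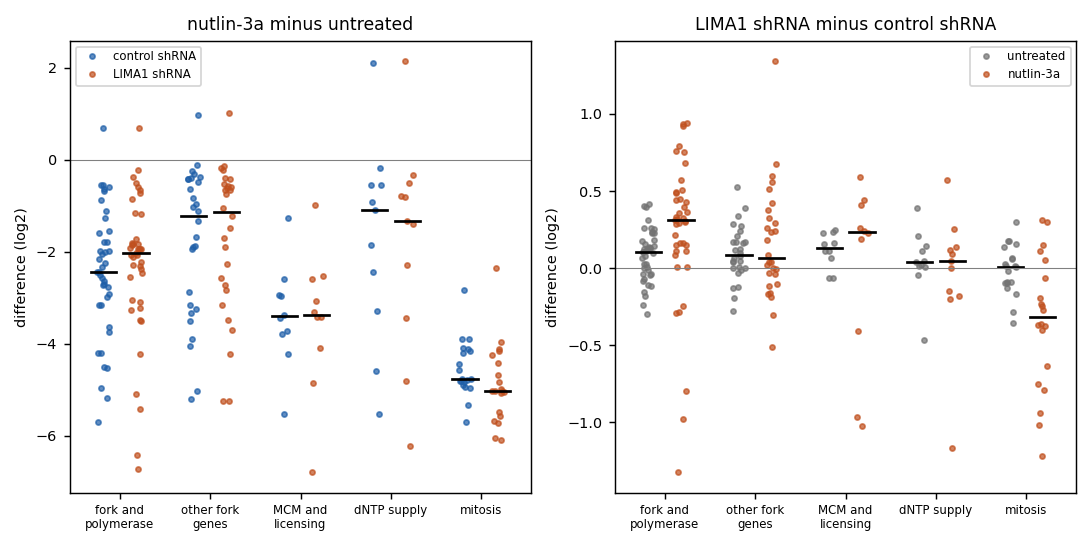
Differences (log2) of single genes, as points, and list medians, as bars, for the 41 measured members other than PRIM2, 28 other fork genes, 10 MCM and licensing genes, 11 deoxynucleotide supply genes and 20 mitotic genes. The left panel shows nutlin-3a minus untreated in each line, and the right panel LIMA1 shRNA minus control shRNA in each treatment; in the right panel the median with nutlin-3a is 0.31 for the members and -0.31 for mitotic genes.

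Some member values could mix reads with other gene models. Of the 42 measured members, 5 had at least 1 value that was not a whole number of fragments (DBF4, GINS4, PRIM2, ORC2 and RPA3). Values over 1000 fragments could not be checked in this way. These were all 4 values of PCNA, LIG1, POLD2 and RPA1 and some values of other members. With the 5 flagged members left out, 31 of 37 members were lower in control and 30 of 37 in LIMA1 shRNA cells with nutlin-3a. Shared reads in the unchecked values are thus not excluded. In the GENCODE 29 annotation, an exon of 17 of the 43 listed members, RECQL4 included, overlapped an exon of another gene. Among them were FEN1 with FADS2 and TMEM258, RFC4 with EIF4A2 and PRIM1 with HSD17B6. For genes on opposite strands, such reads cannot be told apart without a stated strand of counting. FEN1 and FADS2 lie on the same strand, and a stated strand would not separate their reads.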

How the data were processed

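RNA of 4 groups of A549 cells was sequenced, with 1 library per group. Per the submitters' processing notes, bcl2fastq 1.8.3, Bowtie2 2.0.12, Cuffnorm 2.2.1 and hg19 were used; no annotation or strand of counting is stated there. Each deposited file holds signal values, namely normalized fragment counts per gene, scaled by the authors with 1 factor per library and not by length. From the lowest values, 1 fragment is worth a fixed step in each library, and 85.5% to 86.3% of values between 0.5 and 1000 fragments were whole within 0.1, under the 95% needed for a count test. Depth was 15150689 to 16744853 fragments per library.

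Differences were taken on the log2(normalized count + 1) scale for genes with a mean of at least 30, and called at 1. Intervals of 95% are exact (Clopper-Pearson, or the conditional odds ratio for the difference of responses, scaled by the libraries' factors) and, like the floor of 3 fragments, cover counting error only, since fragments were counted without molecular identifiers. The intervals are on the log2 ratio without the added 1. For members with few fragments they are therefore not centred on the differences printed beside them. Lengths are of the longest coding transcript in GENCODE 29, another build. The members and lists were chosen with earlier results of these data known. All members are named with values or ranges, LIMA1, CDKN1A and MDM2 as label checks, and, of the other fork genes, the 4 with the largest nutlin-3a differences. Alternatives were other pseudocounts, scalings, minimum means, call sizes and the removal of members with shared reads. The calculation was tested on simulated data. Python 3.11.15, numpy 2.4.6, pandas 2.3.3, scipy 1.17.1 and matplotlib 3.10.9 were used.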

Additional observations from a re-analysis of the deposited data

Results flagged for a closer look

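For PRIM2, the nutlin-3a difference was above 0 in control and below 0 in LIMA1 shRNA cells, a difference of responses of -6.79; 3 of its 4 values were under the floor, and the difference between the lines was not tested. For 13 members, PRIM2 among them, the difference between the lines had opposite signs in untreated and nutlin-3a cells. With 1 library per group, none of these could be tested. Of all measured genes, 40.6% were above 0 in both treatments and 31.6% below 0 in both. The rest had opposite signs or a value of 0, so such a change of sign was not particular to the members. The difference of responses was negative for CLSPN (-1.24), CDC45 (-0.92) and CDC7 (-0.51), which were higher in LIMA1 shRNA cells when untreated and lower with nutlin-3a. It was positive for ORC6 (0.98), GINS3 (0.60), RNASEH2A (0.50), RPA2 (0.42), ORC1 (0.26), RFC2 (0.20), POLD2 (0.16), DBF4 (0.16) and RPA3 (0.11), which were lower when untreated and higher with nutlin-3a. Signs near 0 depended on the scaling. With nutlin-3a, those for RPA3 and CHAF1B turned negative under both other scalings (upper-quartile and equal-total). In untreated cells, FEN1, LIG1, ORC3 and TIMELESS lay above 0 by only 0.00015 to 0.03. These scalings moved the untreated median of all measured genes from 0.02 to -0.03 and -0.02, by more than those values. The count of 13 is therefore not stable.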

How the results depend on the processing

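No paired analysis was possible because each group is 1 library. No median of the members changed sign under the alternatives, but counts of members above 0 between the lines depended on the scaling. The medians ranged from -2.43 to -2.15 for nutlin-3a in control cells and from -2.06 to -1.87 in LIMA1 shRNA cells. Between the lines they ranged from 0.05 to 0.12 untreated and from 0.26 to 0.32 with nutlin-3a. For the difference of responses the range was 0.16 to 0.21. Members higher with nutlin-3a in control cells were 0 in place of 1 with a minimum mean of 150, without shared reads or without PRIM2, a removal chosen after seeing the data. At a call size of 2, 21 members in place of 33 were lower in LIMA1 shRNA cells. The count in control cells fell as well, with CDC7 (-1.56) and RFC4 (-1.99) among the members no longer called. No share of all genes was computed at that size. With nutlin-3a, members lower in LIMA1 than in control shRNA cells were 1 in place of 2 with a pseudocount of 30, a minimum mean of 150, a call size of 2, without shared reads or without PRIM2. Members at or under -1 in the difference of responses were 1 in place of 3 with a pseudocount of 30 or a call size of 2, and 2 without PRIM2. With no minimum mean, RECQL4 added 1 in place of 0 to the members higher with nutlin-3a in LIMA1 shRNA cells, lower in untreated LIMA1 shRNA cells, higher in LIMA1 shRNA cells with nutlin-3a and higher in the difference of responses. Leaving out PRIM2, whose intervals are not complete, values of single members left their counting interval 24 times with a pseudocount of 30, 4 times with upper-quartile scaling and 2 times with equal-total scaling. Depth limits the members with few fragments in treated cells, CLSPN, FAM111B, CDC45, GINS2 and POLE2.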
